A study of Mus musculus with 8 samples.

Results

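Blood progenitors 2, the committed blood progenitors of mouse embryos at E8.5, were taken as every cell with that label in the combined annotation of the deposited table. They numbered 408 of 28723 cells. Single-cell RNA sequencing was done on chimeric embryos made by injecting tdTomato+ Eomes-KO ESCs into WT blastocysts, in order to ask which cell types can form without Eomes inside a normal embryo. Eomes encodes a T-box transcription factor of the early mesoderm. The tdTomato+ Eomes-KO cells (4 libraries, 8566 cells) and the tdTomato− WT host cells (4 libraries, 20157 cells) were sorted from the same embryo pools, and each pool was made with an independent Eomes-KO clone. Eomes-KO cells descend from cultured male ESCs and host cells from C57BL/6 blastocysts, and no library of injected WT ESCs was analysed here, so that loss of Eomes and ESC origin cannot be told apart.

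The yolk sac is the first site of blood formation in the mouse. Its mesoderm forms blood islands, in which hematoendothelial precursors give rise to endothelium and to a first, primitive wave of erythroid cells, together with primitive megakaryocytes and macrophages. A following wave of erythro-myeloid progenitors (EMPs) arises from hemogenic endothelium of the yolk sac. Blood progenitors 2 are the step of the gastrulation atlas that lies between early hematoendothelial progenitors and hemoglobin-filled erythroid cells. Such progenitors are recognized by Gata1, which drives erythroid and megakaryocyte differentiation, Gata2, which maintains early progenitors, Runx1, which is needed for blood to emerge from endothelium, and Itga2b, which encodes the CD41 integrin of early progenitors and megakaryocytes. Only a table of cells with transferred labels and per-cell totals was analysed here, so these markers, and with them the label itself, could not be checked against expression.

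Libraries are named here by their number of cells. The Eomes-KO libraries held 602, 1153, 3346 and 3465 cells, and the WT host libraries 2414, 3791, 5819 and 8133 cells. Median UMIs per cell, the number of RNA molecules counted in a cell, lay between 8901 and 32559.5 in Eomes-KO libraries and between 5124 and 11002 in WT host libraries. The WT host library of 8133 cells was the shallowest of all 8. The WT host library of 3791 cells stood apart in its blood, as given below. Of all barcodes, 80 occurred in a pair of libraries, and 1 of these belonged to a blood progenitors 2 cell.

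All 408 blood progenitors 2 cells were WT host cells. None of the 8561 epiblast-derived Eomes-KO cells carried the label, against 408 of 19284 epiblast-derived WT host cells. Epiblast-derived cells are all cells other than those labelled visceral endoderm, ExE endoderm, ExE ectoderm or parietal endoderm, tissues to which injected ESCs contribute little. The Eomes-KO libraries of 602, 1153, 3346 and 3465 cells held 0 cells each, where a count of 0 allows shares of up to 0.499%, 0.261%, 0.0897% and 0.0866% (3 cells of the epiblast-derived total). The WT host libraries held 82 cells (3.42%, library of 2414 cells), 31 cells (0.825%, 3791 cells), 123 cells (2.39%, 5819 cells) and 172 cells (2.16%, 8133 cells). Their exact 95% binomial intervals, which cover counting error only, were 2.73 to 4.23%, 0.561 to 1.17%, 1.99 to 2.84% and 1.85 to 2.50%. The genotypes did not overlap, and the lowest WT host share lay above the limit of every Eomes-KO library.

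The mean share was 0% in Eomes-KO libraries and 2.20% ± 1.07 in WT host libraries (SD, n = 4 each; exact two-sided permutation test, p = 0.029, the smallest that 4 against 4 libraries allow). That test treats libraries as unpaired, although both genotypes were sorted from the same embryo pools. With every Eomes-KO share at 0, the within-pool differences equal the WT host shares under any matching. An exact sign-flip test of 4 such differences cannot go below p = 0.13. At the mean WT host share, the Eomes-KO libraries would have held 13.2, 25.3, 73.5 and 76.2 blood progenitors 2 cells. With 3 cells over all Eomes-KO libraries taken as the detection limit, the label was at least 60.4-fold lower in Eomes-KO cells, and leaving out each WT host library in turn gave bounds between 55.1 and 69.3. In the edgeR quasi-likelihood test over all cell types the adjusted p was 1.28e-05, and 16 of 33 cell types (48.5%) were called lower in Eomes-KO cells, so that the call itself is shared with many types. The library-wise p loses the threshold, at 0.057, when any 1 Eomes-KO library is left out, although the shares still did not overlap.

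**Figure D1:**
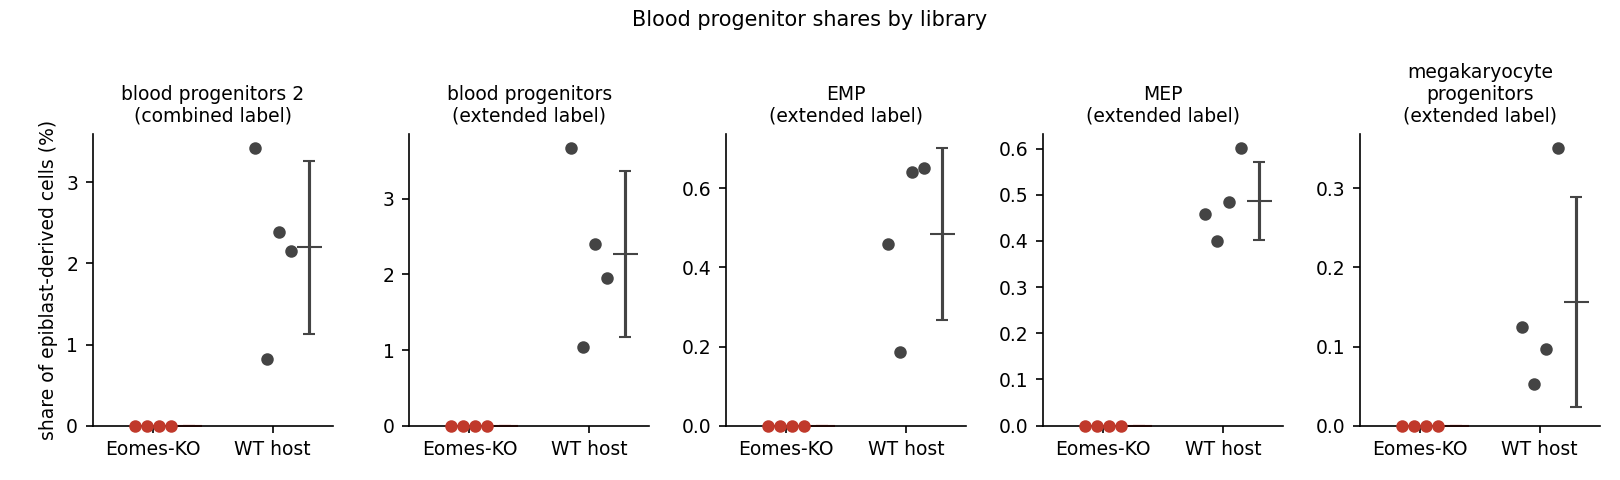
Share of epiblast-derived cells (%) with each blood progenitor label in the 4 Eomes-KO libraries (red) and the 4 WT host libraries (black). Each point is 1 library, horizontal marks are means and bars 1 SD. Every Eomes-KO library lies at 0, and WT host libraries lie between 0.825 and 3.42% for blood progenitors 2.

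Over the whole series, no Eomes-KO cell carried any finer label found among blood progenitors 2, except erythroid, which 1 Eomes-KO cell carried. The authors also transferred labels from an extended version of the atlas, which divides blood more finely. Under that version 0 Eomes-KO cells and 407 WT host cells were blood progenitors, 0 and 103 were EMPs, 0 and 99 were MEPs (megakaryocyte-erythroid progenitors) and 0 and 38 were megakaryocyte progenitors. Against the same limit of 3 cells these are at least 60.2-fold, 15.2-fold, 14.7-fold and 5.62-fold lower in Eomes-KO cells. Counted within blood progenitors 2 alone, the bounds were 44.0-fold, 5.62-fold, 4.44-fold and 5.62-fold (297, 38, 30 and 38 WT host cells). All 38 megakaryocyte progenitors and 297 of the 407 blood progenitors were blood progenitors 2. The tests of these labels therefore largely repeat the absence of blood progenitors 2. The adjusted p values of edgeR were 8.86e-07 for blood progenitors, 5.13e-05 for EMPs, 1.61e-05 for MEPs and 0.0039 for megakaryocyte progenitors, where 44 of 69 extended labels (63.8%) were called lower. The 27 Haematoendothelial progenitors of the extended labels, the cells from which blood and endothelium form, were WT host cells too (0 Eomes-KO cells, at least 4.00-fold lower, adjusted p = 0.011). These calls of the 2 rarest labels rest on the WT host library of 8133 cells, without which the edgeR adjusted p was 0.056 for megakaryocyte progenitors and 0.060 for Haematoendothelial progenitors. In DESeq2 with poscounts size factors they were 0.080 and 0.14.

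Neighboring blood labels of the combined annotation were likewise held by WT host cells. Blood progenitors 1, another early blood label, had 0 Eomes-KO cells and 61 WT host cells (edgeR adjusted p = 0.0028). Erythroid cells, the main product of the primitive wave, had 1 Eomes-KO cell and 4069 WT host cells (adjusted p = 2.32e-09). The label EMP had 0 and 16 cells (adjusted p = 0.078), and YS endothelium, the vessel lining of the yolk sac, 0 and 51 cells (adjusted p = 0.0050). Cells labelled Haematoendothelial progenitors numbered 0 in Eomes-KO libraries and 11 in WT host libraries (adjusted p = 0.12). The original atlas uses that name more widely, and there it was not called. It was carried by 215 Eomes-KO cells and 464 WT host cells (log2 fold change −0.35 ± 0.65, SE; edgeR adjusted p = 0.64). Its shares in the Eomes-KO libraries of 602, 1153, 3346 and 3465 cells were 0, 0.522, 3.29 and 2.86%. The WT host libraries lay between 1.57 and 2.76%, so that Eomes-KO libraries lay both below and above all of them. In the combined annotation 179 of the 215 Eomes-KO cells and 245 of the 464 WT host cells were allantois endothelium. Another 22 and 175 were endothelium of the embryo proper. Thus no Eomes-KO cell carried the narrower combined or extended label of that name. For the combined label, with 11 WT host cells, the bound is at least 1.63-fold lower, and the difference was not called.

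Everything below concerns the 408 WT host cells. By the labels of the original atlas they were the same 408 cells, so that combining the annotations moved none in or out. By the extended labels they were a mixture. Blood progenitors made up 297 of them (72.8%), EMPs 38 (9.31%), megakaryocyte progenitors 38 (9.31%), MEPs 30 (7.35%), Haematoendothelial progenitors 4 (0.980%) and erythroid cells 1 (0.245%). The extended labels were transferred from the same nearest atlas cells as the combined label, so the split is a description of what these cells resemble and was not tested.

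Blood progenitors 2 held different shares of each extended label. All 38 megakaryocyte progenitors of the series were blood progenitors 2. Of the 407 cells labelled blood progenitors in the extended atlas, 297 (73.0%) were blood progenitors 2, 109 were erythroid and 1 was blood progenitors 1. EMPs were spread over 3 combined labels, with 38 of 103 (36.9%) in blood progenitors 2, 49 in blood progenitors 1 and 16 in the combined label EMP. Of 99 MEPs, 30 (30.3%) were blood progenitors 2 and 69 erythroid. Thus the combined label EMP holds 16 of the cells that the extended atlas calls EMPs, and more of them lie within blood progenitors 2.

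The mixture was not the same in every WT host library. The extended label blood progenitors was carried by 67 of 82 cells (81.7%) in the library of 2414 cells, 25 of 31 (80.6%) in that of 3791 cells, 96 of 123 (78.0%) in that of 5819 cells and 109 of 172 (63.4%) in that of 8133 cells. EMPs were more even, with 5, 4, 11 and 18 cells in the same order (6.10, 12.9, 8.94 and 10.5%). MEPs numbered 5, 0, 9 and 16 (6.10, 0, 7.32 and 9.30%), and the 0 of 31 cells allows a share of up to 9.68% (3 cells). Megakaryocyte progenitors numbered 3, 2 and 5 in the libraries of 2414, 3791 and 5819 cells (3.66, 6.45 and 4.07%) and 28 in that of 8133 cells (16.3%, exact 95% interval 11.1 to 22.7%). The library of 8133 cells therefore supplied 28 of the 38 megakaryocyte progenitors, and its interval lies above the interval of the library of 5819 cells (1.33 to 9.23%) and of that of 2414 cells (0.761 to 10.3%). It overlaps that of the library of 3791 cells (0.791 to 21.4%, 31 cells), and all these intervals cover counting error only. The library of 8133 cells is also the shallowest library, and the part of depth in this difference was not tested.

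The mapped stage, the embryonic day of the atlas cells that a cell resembles most, ran from E7.75 to E8.5. Of the 408 cells, 120 (29.4%) mapped to E7.75, 142 (34.8%) to E8.0, 62 (15.2%) to E8.25 and 84 (20.6%) to E8.5, and none to E7.5. This spread has a dip at E8.25. The extended labels lay mainly on either side of it and overlapped there. The cells labelled blood progenitors mapped to E7.75 (116 cells), E8.0 (139) and E8.25 (42), and 0 of 297 to E8.5. EMPs mapped mainly to E8.25 (10 of 38) and E8.5 (26 of 38), MEPs to E8.25 (10 of 30) and E8.5 (20 of 30), and all 38 megakaryocyte progenitors to E8.5. All 84 E8.5 cells were thus EMPs, MEPs or megakaryocyte progenitors. The 4 Haematoendothelial progenitors mapped to E7.75 (3 cells) and E8.0 (1 cell). Stage and label come from the same atlas neighbors, so these values are a description without a test.

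**Figure D2:**
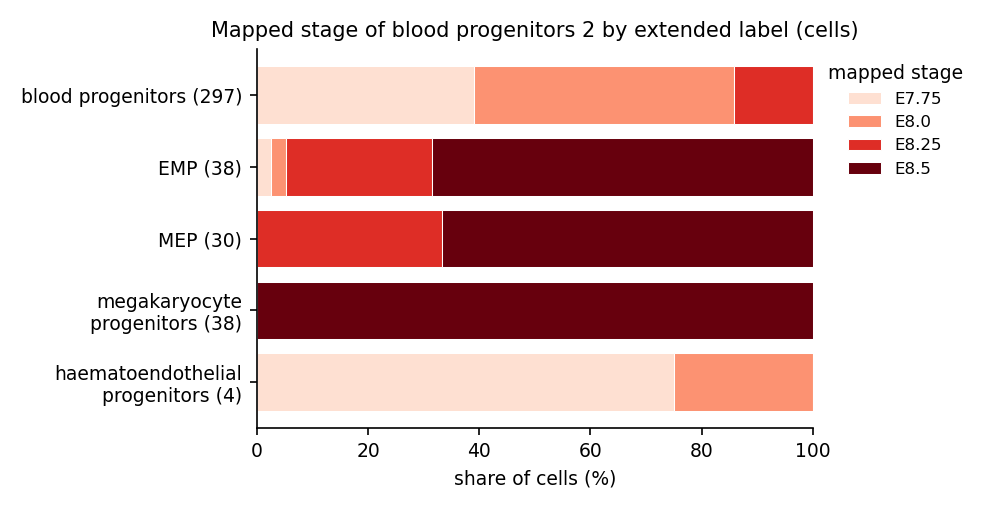
Share of cells (%) at each mapped stage, for the extended labels within blood progenitors 2, with the number of cells in brackets. Blood progenitors (297 cells) have no cell at E8.5, whereas all 38 megakaryocyte progenitors map to E8.5.

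The other blood cells were distributed differently over the stages. Erythroid1, the first of the 3 erythroid labels of the original atlas, covered E7.75 to E8.25 (523, 565 and 706 cells) with 31 of 1825 cells (1.70%) at E8.5. Erythroid2 mapped mainly to E8.25 (954 of 1108 cells) and Erythroid3, the most mature label, to E8.5 (1074 of 1136 cells). Blood progenitors 1 had 1, 7, 21, 11 and 21 cells at E7.5, E7.75, E8.0, E8.25 and E8.5, so that both progenitor labels include early and late mapped cells. The 16 cells of the combined label EMP mapped to E7.75 (1 cell), E8.0 (7) and E8.25 (8), none of them to E8.5.

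Within each WT host library, blood progenitors 2 had a younger mean mapped stage than erythroid cells and than all other epiblast-derived cells. Their mean mapped stage in the libraries of 2414, 3791, 5819 and 8133 cells was 7.97, 8.08, 8.02 and 8.15 days, against 8.20, 8.30, 8.19 and 8.22 days for all other epiblast-derived cells. The difference averaged −0.17 days ± 0.070 (SD, n = 4) and had the same sign in 4 of 4 libraries. Against erythroid cells it was −0.16 days ± 0.083, again lower in 4 of 4 libraries. The share of cells at E8.5 was lower than in all other epiblast-derived cells in 4 of 4 libraries. Against erythroid cells this share was lower in 3 libraries and higher in 1, that of 8133 cells (27.3 against 27.0%). Blood progenitors 1 also mapped later than blood progenitors 2 in the 3 libraries with at least 5 of them, with a mean stage of 8.04 days in blood progenitors 2 and 8.18 days in blood progenitors 1 (difference −0.14 days ± 0.096, SD, n = 3). Erythroid1 cells had mean stages of 8.001, 8.075, 8.001 and 8.058 days. Blood progenitors 2 were therefore younger than Erythroid1 in the library of 2414 cells and older in those of 3791, 5819 and 8133 cells. The gap was widest in the library of 8133 cells (8.145 against 8.058 days).

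The library of 2414 cells had the youngest blood progenitors 2, with 37 of 82 cells (45.1%) at E7.75 and 9 (11.0%) at E8.5. In the library of 5819 cells these were 47 of 123 (38.2%) and 22 (17.9%). The libraries of 3791 and 8133 cells had fewer at E7.75 (6 of 31, or 19.4%, and 30 of 172, or 17.4%) and 6 (19.4%) and 47 (27.3%) at E8.5. Among the cells labelled blood progenitors alone, which held none at E8.5, the mean stage was 7.88, 7.98, 7.91 and 7.98 days, a narrower range than over all blood progenitors 2. The library of 8133 cells, which has the most megakaryocyte progenitors, is therefore the latest over all blood progenitors 2 and level with that of 3791 cells once EMPs, MEPs and megakaryocyte progenitors are set aside.

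**Figure D3:**
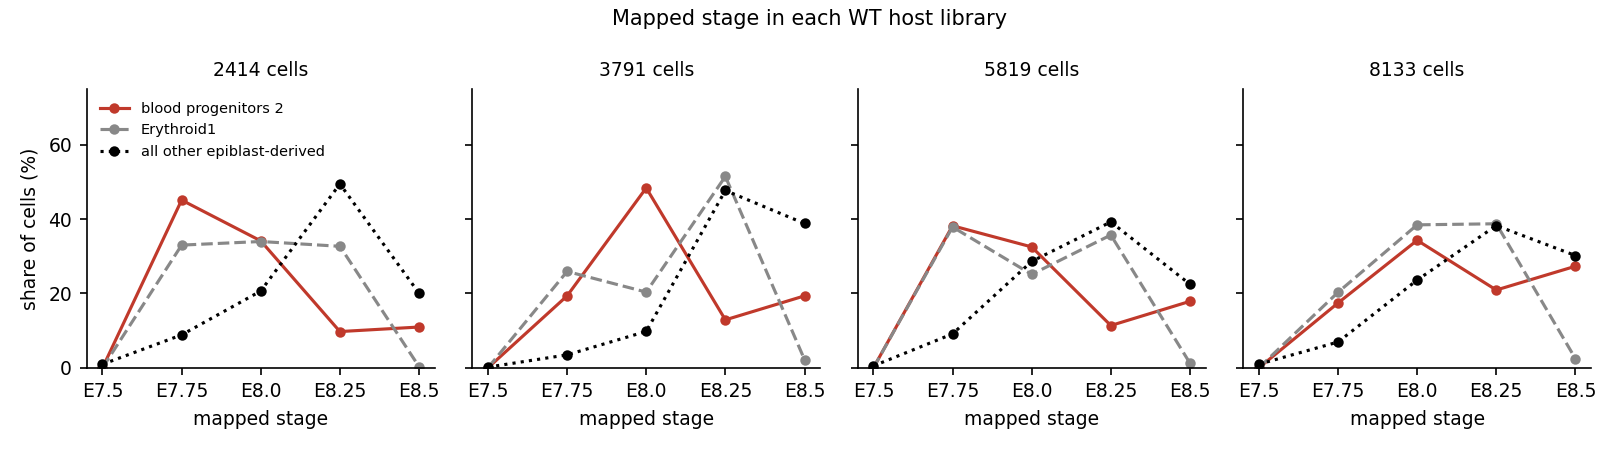
Share of cells (%) at each mapped stage in the 4 WT host libraries, for blood progenitors 2 (red), Erythroid1 (gray) and all other epiblast-derived cells (black). At E8.5 blood progenitors 2 hold 11.0 to 27.3% of their cells in every library, and Erythroid1 0.324 to 2.47%.

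Among WT host blood cells, defined as blood progenitors 1, blood progenitors 2, EMP and erythroid, blood progenitors 2 were the largest class after erythroid cells. They made up 82 of 769 blood cells (10.7%) in the library of 2414 cells, 31 of 1191 (2.60%) in that of 3791 cells, 123 of 1068 (11.5%) in that of 5819 cells and 172 of 1526 (11.3%) in that of 8133 cells. The mean was 9.01% ± 4.29 (SD, n = 4), beside 1.24% ± 0.881 for blood progenitors 1, 0.320% ± 0.300 for EMP and 89.4% ± 5.27 for erythroid cells. Hence 3 libraries lay within 1 percentage point of each other, and the library of 3791 cells lay far below them.

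That library was not poor in blood as such. Its 1157 erythroid cells outnumbered its blood progenitors 2 by 37.3 to 1, where the other libraries had 7.48 to 8.29 erythroid cells per blood progenitors 2 cell. The gap was smaller for the least mature erythroid label, with 8.71 Erythroid1 cells per blood progenitors 2 cell against 3.77 to 4.53 elsewhere. Erythroid3 made up 46.9% of its blood cells and 15.4 to 18.9% elsewhere. Its epiblast-derived cells other than blood progenitors 2 were the furthest advanced, with 38.8% at E8.5 against 20.1 to 30.2% in the other 3 libraries. That group includes the 1157 erythroid cells, 568 of them at E8.5, so this value is not separate from the Erythroid3 share. The library with the oldest mapped stage was therefore the one with the smallest share of blood progenitors 2, which with 4 libraries is a description of 1 library, and the part of embryo age in it was not tested.

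**Figure D4:**
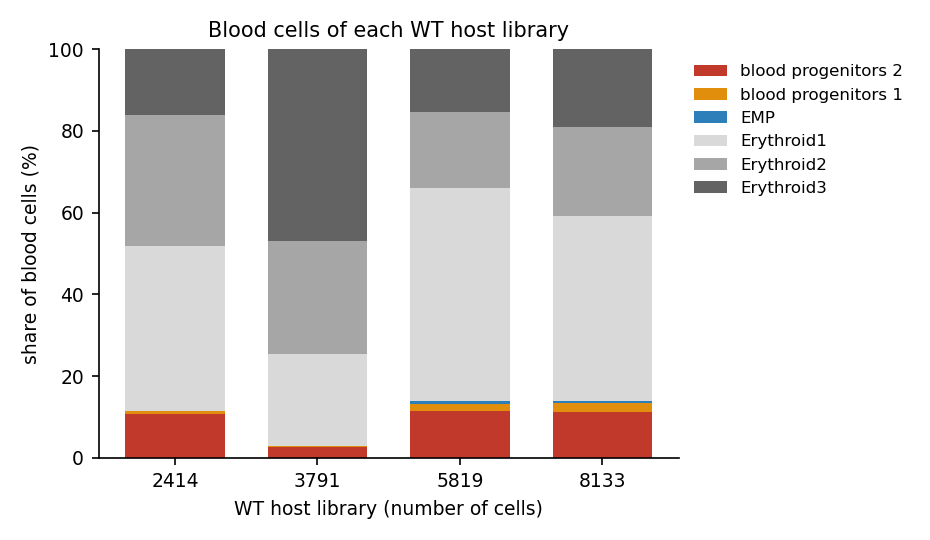
Composition (% of blood cells) of the 4 WT host libraries by label, with blood progenitors 2 in red. They hold 10.7, 11.5 and 11.3% of blood in the libraries of 2414, 5819 and 8133 cells, and 2.60% in that of 3791 cells, where Erythroid3 holds 46.9%.

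RNA content set blood progenitors 2 apart from most cells but hardly from erythroid cells. Their median UMIs per cell were 9660, 12909, 13466 and 5828 in the libraries of 2414, 3791, 5819 and 8133 cells, against 8328, 10723, 10794 and 5094 in all other epiblast-derived cells. They were 1.19-fold higher, in 4 of 4 libraries. Against erythroid cells the ratio was 0.971, with lower values in 4 of 4 libraries (9740, 13140, 14173 and 6070.5 UMIs in erythroid cells). Against blood progenitors 1, in the 3 libraries that hold at least 5 of them, it was 1.17-fold higher in 3 of 3. The exact sign-flip test over libraries cannot go below p = 0.13 with 4 libraries or 0.25 with 3, which is what these comparisons gave (adjusted p = 0.28 and 0.41 over 18 comparisons), so none passed.

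More genes were detected in blood progenitors 2 than in erythroid cells of the same library, despite the slightly fewer UMIs. The medians were 2829, 3287, 3408 and 2121 genes, against 2594, 2931, 3168 and 1988 in erythroid cells, or 1.09-fold (log2 ratio 0.12 ± 0.032, SD, n = 4; higher in 4 of 4 libraries, exact sign-flip p = 0.13). Restricting both to cells of 5000 to 20000 UMIs left 2849, 3269, 3336.5 and 2266 genes, against 2631.5, 2913, 3121 and 2075. The size of the difference varied with erythroid maturity. It was 1.03-fold against Erythroid1 (2726, 3204.5, 3326 and 2078 genes), 1.10-fold against Erythroid2 and 1.18-fold against Erythroid3, each higher in 4 of 4 libraries (comparators added after the values were seen, without a test). The number of genes per cell was also 1.08-fold that of all other epiblast-derived cells, in 4 of 4 libraries.

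The mitochondrial share of UMIs was lower in blood progenitors 2 than in erythroid cells, with medians of 1.35, 1.12, 1.68 and 1.69%, against 1.70, 1.63, 1.95 and 1.94% in erythroid cells. The difference was −0.35 percentage points ± 0.12 (SD, n = 4), below erythroid cells in 4 of 4 libraries, and −0.22 percentage points against all other epiblast-derived cells, also in 4 of 4 (both exact sign-flip p = 0.13). It was smaller against Erythroid1 (−0.15 percentage points ± 0.085, lower in 4 of 4) than against Erythroid2 (−0.45) or Erythroid3 (−0.58). Against blood progenitors 1 the sign was mixed, lower in 2 libraries and higher in 1 (exact sign-flip p = 0.5). The ribosomal share was 1.03 percentage points above all other epiblast-derived cells in 4 of 4 libraries, but lay on both sides of erythroid cells (higher in 2 libraries, lower in 2). The doublet score, a measure of how far a profile resembles a mixture of cells, had a mean of 0.146 over libraries against 0.090 in erythroid cells, higher in 4 of 4, and 0.178 in all other epiblast-derived cells, from which it differed in no common direction (higher in 1 library, lower in 2). A score of at least 0.25 was given to 70 of the 408 cells.

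The extended labels within blood progenitors 2 differed in the same measures. EMPs, MEPs and megakaryocyte progenitors were joined for this comparison after their mapped stages had been seen, since single labels had fewer than 5 cells in some libraries. Their median mitochondrial share was 1.55, 1.79, 2.22 and 1.96% in the libraries of 2414, 3791, 5819 and 8133 cells, against 1.27, 1.04, 1.60 and 1.60% in the cells labelled blood progenitors. They were thus higher by 0.50 percentage points ± 0.22 (SD, n = 4), in 4 of 4 libraries. Their ribosomal share was higher by 1.43 percentage points ± 0.63 in 4 of 4 libraries, and their doublet score lower by 0.041 ± 0.0085 in 4 of 4. Each of these gave the exact sign-flip p of 0.13 (adjusted p = 0.25), the smallest possible. The mitochondrial share was below that of erythroid cells in the cells labelled blood progenitors in every library. The joined labels lay below erythroid cells in 1 library and above them in 3. Single labels did not always follow the joined ones. EMPs had higher doublet scores than cells labelled blood progenitors in the libraries of 2414 and 3791 cells (0.22 against 0.18, 0.23 against 0.17). They had lower ones in those of 5819 and 8133 cells. In the library of 8133 cells, mitochondrial medians were 1.495% in EMPs and 1.465% in MEPs, below 1.60%, and 2.135% in megakaryocyte progenitors.

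UMIs and genes of the joined labels had no common direction, higher in 2 libraries and lower in 2. Over all cells of a label regardless of library, megakaryocyte progenitors had a median of 5772 UMIs, against 9334 in cells labelled blood progenitors. That gap mixes libraries, since 28 of the 38 cells come from the shallowest one. Within libraries, megakaryocyte progenitors had medians of 6184, 10674.5, 13899 and 4976.5 UMIs in the libraries of 2414, 3791, 5819 and 8133 cells, against 9583, 13489, 13441 and 5987 UMIs in cells labelled blood progenitors. They were lower in 3 libraries and higher in that of 5819 cells (log2 ratio −0.30 ± 0.28, SD, n = 4). Genes followed the same order (log2 ratio −0.16 ± 0.15). This comparison was chosen after the values were seen and was not tested, and 3 of the libraries hold 5 or fewer megakaryocyte progenitors.

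**Figure D5:**
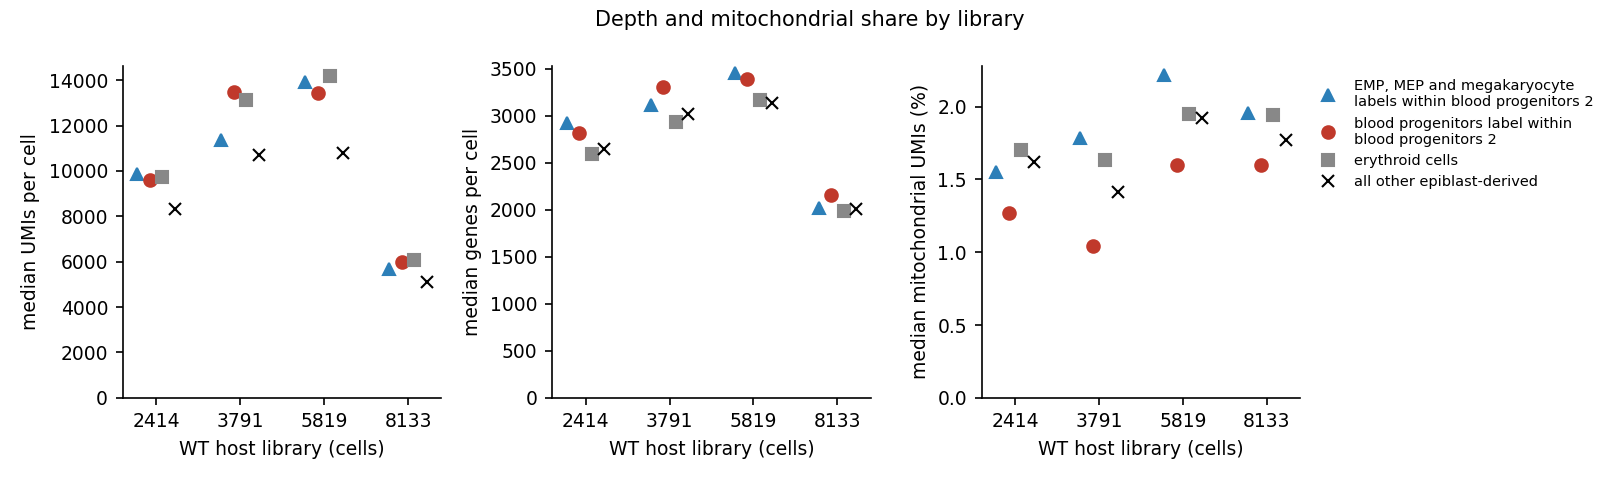
Median UMIs, genes and mitochondrial share of UMIs (%) per WT host library, for the joined EMP, MEP and megakaryocyte labels (triangles) and the blood progenitors label (circles) within blood progenitors 2, erythroid cells (squares) and all other epiblast-derived cells (crosses). The mitochondrial medians of the circles (1.04 to 1.60%) are the lowest of the plotted groups in every library.

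The label was assigned with varying certainty. Of a cell's 15 closest atlas cells, the fraction with its own label (label score) had medians of 1, 0.933, 0.867 and 0.933 in the libraries of 2414, 3791, 5819 and 8133 cells. All 15 neighbors carried it in 178 of 408 cells (43.6%), and the lowest score was 0.533, so that no cell was labelled by a minority of its neighbors. The score was 1 in the joined EMP, MEP and megakaryocyte labels and 0.892 in the cells labelled blood progenitors (means of library medians). The extended label was scored the other way round, with medians over all cells of 0.667 for EMPs, 0.733 for MEPs, 0.733 for megakaryocyte progenitors and 0.933 for blood progenitors. The later cells were thus firmly blood progenitors 2 in the combined labels and less firmly any 1 of the finer ones.

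The single nearest atlas cell gives another view of the boundary. The 408 cells had 316 different nearest atlas cells, of which the most used served 9 cells and 40 were shared by cells of 2 or more libraries. Another 41 cells of the series had 1 of these 316 as their nearest. They were 38 erythroid cells and 3 blood progenitors 1 cells, and none was an Eomes-KO cell.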

How the data were processed

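The authors sequenced sorted tdTomato+ and tdTomato− cells with a droplet assay, and aligned reads to mm10 plus the tdTomato sequence in Cell Ranger 6.0.1. Hemoglobin genes had been left out of the authors' mapping to the atlas. The deposited UMI and gene numbers are counts per cell without normalization, after the authors' filters (log10 UMIs of 3.5 to 5, at least 1500 genes, mitochondrial share under 5%, ribosomal share under 35%, doublet score up to 0.5). Mitochondrial and ribosomal shares were deposited as percent of UMIs, the doublet score as the authors' hybrid score, and label scores as the fraction of 15 nearest atlas cells. Labels and mapped stages were used as deposited.

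For each library the number of cells per label was taken, and its genotype was read from tdTomato status. Abundance was tested with edgeR 4.0.16 (glmQLFit and glmQLFTest, genotype only, epiblast-derived cells as library size, labels with at least 10 cells, Benjamini-Hochberg at 0.05), with DESeq2 1.42.0 and limma 3.58.1 as alternatives. The study's embryo pool term could not be fitted, since library names do not give the pool. Single values were compared by exact permutation over libraries, and within-library differences by exact sign flips (scipy 1.17.1). Fitted fold changes of labels with no Eomes-KO cell depend on the prior count, so bounds are given. Cells are not replicates, and libraries are pools of embryos. The rule for naming took every blood or hemogenic label and each finer label or stage held by at least 1% of blood progenitors 2, and the 2 rarer finer labels were named after their counts were seen. The members, lists and tests were chosen with earlier results of these data known. Alternatives are given in the closing section.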

Additional observations from a re-analysis of the deposited data

Results flagged for a closer look

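In the WT host library of 3791 cells, blood progenitors 2 were 2.60% of blood cells, against 10.7 to 11.5% in the other 3 WT host libraries, a gap of 0.904 of the whole range. The single cell with the extended label erythroid gave 1.22% of blood progenitors 2 in the WT host library of 2414 cells, against 0% in the others, and rests on 1 cell. These were 2 of 32 groups of 4 libraries examined, and chance sets a library apart in about 1 in 20.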

How the results depend on the processing

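Over 317 alternative values of 48 results, 305 were classed as unchanged, 8 no longer passed the threshold and 4 changed direction. The 305 include values that could not cross the threshold. Shares of finer labels, the share of blood cells and the numbers of labels called lower had no test. The exact sign-flip test over 4 or fewer libraries cannot reach the threshold, so there only the direction could change. Only the abundance tests and the share per library could lose the threshold, and all 8 losses were among them. The edgeR call of blood progenitors 2 held under all 20 alternatives (adjusted p from 1.01e-13 to 0.00078, across other scalings and tools, denominators, annotations, score, doublet and depth filters, and each library left out). With 1 library left out, the difference in share lay between −2.66 percentage points (without the WT host library of 3791 cells) and −1.79 (without that of 2414 cells), and it was −2.20 with an exact permutation p of 0.057 without any 1 Eomes-KO library. Of differences that lay near 0, the ribosomal share against erythroid cells ranged from −0.39 to 0.098 percentage points over left-out libraries, the doublet score against blood progenitors 1 from −0.010 to 0.013, and the log2 ratio of UMIs of the joined EMP, MEP and megakaryocyte labels to the blood progenitors label from −0.094 to 0.0053. The number of extended labels called lower was 44 without scaling, 34 with TMM factors and 30 in DESeq2 with poscounts size factors, and 37 to 45 with a library left out (the last 3 settings chosen after seeing the data). The doublet score difference from blood progenitors 1 was 0.0017 with medians and −0.017 with means. No model with an embryo pool term was fitted, because the library names do not say which pool each library came from.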
